A study of Mus musculus with 36 samples.

Results

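The 3 mouse genes that encode subunit c of the mitochondrial ATP synthase, Atp5g1, Atp5g2 and Atp5g3, were followed through RNA-seq of mouse brain. They were taken by gene symbol, or by Ensembl identifier where an annotation names them otherwise, and make up 3 of the 55450, 53379 and 54146 genes counted at 1, 2 and 3 months of age. The libraries came from forebrain/midbrain (F/M) and cerebellum (Cb) of control and Tpp1-/- mice, with 3 libraries for each age, region and genotype and 36 in all. Tpp1-/- mice carry a gene-targeted disruption of Tpp1, the gene for a tripeptidyl peptidase of the lysosome, in every cell, and are a model of classical late infantile neuronal ceroid lipofuscinosis. Control mice were unaffected siblings from crosses of heterozygotes and were labelled wild type, except control replicate 3 at 1 month, which was labelled Tpp1+/- in both regions. All mice were male at 2 months, and both sexes were present in every group at 1 and 3 months.

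Subunit c forms the ring in the inner mitochondrial membrane that turns as protons pass through the ATP synthase. Each of the 3 genes encodes a precursor with its own import sequence, which is cut away to leave the same small hydrophobic protein. Subunit c is known as the main protein of the storage material that builds up in lysosomes when TPP1 is missing. The comparisons below ask whether the transcripts that encode it differ between Tpp1-/- and control brain or between regions, and whether the difference between genotypes changes with age.

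The coding sequences are shown because they decide how well short reads can tell the genes apart. On GRCm38, Atp5g1 (ENSMUSG00000006057) lies at chr11:96068852-96075670, Atp5g2 (ENSMUSG00000062683) at chr15:102662864-102672352 and Atp5g3 (ENSMUSG00000018770) at chr2:73908447-73911326, all on the minus strand. Their open reading frames hold 136, 146 and 141 codons, and the last 78 codons encode the same residues in all 3 genes. This stretch of 234 bases spans 2 coding exons in each gene, from chr11:96073107-96073644, chr15:102663017-102665175 and chr2:73908596-73909305. It is written 5′ to 3′ on the coding strand without the stop codon, from the GENCODE M21 transcripts, with the 63 positions at which the 3 genes are not all alike in capitals.
Atp5g1: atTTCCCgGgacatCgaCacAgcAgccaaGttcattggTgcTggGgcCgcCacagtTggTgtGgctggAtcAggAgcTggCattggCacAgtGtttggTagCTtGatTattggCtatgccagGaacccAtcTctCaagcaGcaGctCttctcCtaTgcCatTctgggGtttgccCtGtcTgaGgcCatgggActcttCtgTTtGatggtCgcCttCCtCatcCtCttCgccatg
Atp5g2: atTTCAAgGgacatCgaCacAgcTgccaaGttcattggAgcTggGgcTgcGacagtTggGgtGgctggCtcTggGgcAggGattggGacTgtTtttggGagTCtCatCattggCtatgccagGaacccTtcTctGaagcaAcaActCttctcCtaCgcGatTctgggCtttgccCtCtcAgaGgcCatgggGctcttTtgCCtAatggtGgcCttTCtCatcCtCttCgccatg
Atp5g3: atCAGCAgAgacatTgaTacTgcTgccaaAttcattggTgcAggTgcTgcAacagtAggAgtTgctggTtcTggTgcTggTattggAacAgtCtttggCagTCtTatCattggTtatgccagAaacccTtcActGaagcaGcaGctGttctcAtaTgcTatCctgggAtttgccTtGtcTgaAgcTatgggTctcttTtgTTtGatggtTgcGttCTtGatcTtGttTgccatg
Atp5g1 and Atp5g2 were the closest pair, with 36 differing bases and 84.6% identity. Atp5g3 differed from Atp5g1 at 50 bases (78.6% identity) and from Atp5g2 at 53 bases (77.4% identity). Most differences fell on the last base of a codon, 33 of 36 between Atp5g1 and Atp5g2 and all but 6 of the 53 between Atp5g2 and Atp5g3 among them. The longest identical run between any pair was 20 bases, so no 50-base read from this stretch fits 2 of the 3 genes without a mismatch.

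Processed pseudogenes, which are copies of spliced transcripts elsewhere in the genome, were a different matter. Of the 185 windows of 50 bases, the length of the study's reads, within the shared coding stretch, 184 of Atp5g1 also occur in Gm10039 or Gm12337. All 185 of Atp5g2 also occur in Gm10175 or Gm10231, and none of the 185 of Atp5g3 occurs in another annotated transcript. Over whole transcripts, every window of the 441-base transcript of Atp5g2 (392 of 392) and 87.4% of those of its 731-base transcript are shared with another gene, against 14.8% and 46.4% for its transcripts of 753 and 635 bases. For Atp5g1 the figures are 66% and 56.2% for its transcripts of 596 and 691 bases, against 11.6% and 11.8% for those of 4715 and 4660 bases.

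**Figure D1:**
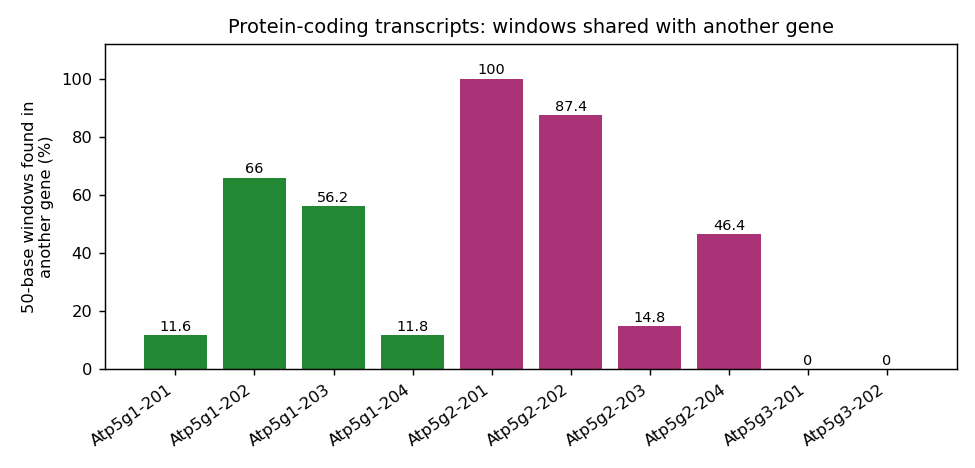
Share of the 50-base windows of each protein-coding GENCODE M21 transcript of the 3 genes that also occurs, on either strand, in a transcript of another gene (y axis, percent). Both Atp5g3 transcripts stand at 0, whereas the first Atp5g2 transcript stands at 100 and the next at 87.4.

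These copies hardly received any counts. Gm10231 was listed with at most 1 count in the 36 libraries, Gm12337 with at most 1, Gm6612 with at most 2, Gm10175 with at most 3 and Gm10039 with 0 to 24. The mitochondrially encoded subunit genes mt-Atp6 (0 to 4 counts) and mt-Atp8 (0 in every library) were likewise nearly empty, although mt-Co1, on the same genome, held 125691 to 364922 counts. How reads that match both a member and its copies were counted was not settled, so the levels of Atp5g1 and Atp5g2 may be too low. Within an age, all libraries were counted in the same way.

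Library totals ran from 10609896 to 29942380 counts, with a median of 21049839. Tpp1 was lower in Tpp1-/- than in control libraries in all 6 comparisons, with folds from 0.23 to 0.403 and groups that did not overlap. The summed level of 8 cerebellar genes, in counts scaled to a library total of 1000000 (CPM), was 4718 to 6344 CPM in Cb and 73.7 to 116.6 CPM in F/M, and that of 8 forebrain genes was 569.7 to 708.1 CPM in F/M and 121.4 to 183 CPM in Cb, on the side of the labels. A list of 7 midbrain and thalamus genes ran the other way, with 287.5 to 417.8 CPM in F/M and 481.3 to 705 CPM in Cb. Tissue pieces were sequenced whole, so fewer cells of a type and less RNA per cell cannot be told apart. Levels were not compared between ages, because each age was counted with its own annotation and settings and these cannot be told apart from age.

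Atp5g3 was the most abundant of the 3 genes by far. As CPM, after TMM scaling of the library totals, divided by annotated length in kilobases (RPKM), Atp5g3 ranged from 75.7 to 186.7 over the 36 libraries, with a median of 94.7. Atp5g1 ranged from 2.55 to 8.02 RPKM with a median of 4.96, and Atp5g2 from 0.577 to 1.44 RPKM with a median of 0.954. Atp5g3 thus held 94.2% ± 1.35 (SD, n = 36) of the summed RPKM of the 3 genes, Atp5g1 4.89% ± 1.22 and Atp5g2 0.902% ± 0.2. The order of the 3 genes was the same in every library, as the Atp5g3 share never fell under 90.9%, the Atp5g1 share lay between 2.8% and 7.91% and the Atp5g2 share between 0.488% and 1.24%.

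The share depends on which bases are taken as countable. By counts alone, with no division by length, Atp5g3 held 89% and Atp5g1 10.4%. Division by the number of windows unique to each gene, over all its transcripts (4339 for Atp5g1, 1000 for Atp5g2, 2224 for Atp5g3), gave 92.9%, 5.57% and 1.52% for Atp5g3, Atp5g1 and Atp5g2. With only the coding transcript that has the fewest unique windows (186, 86 and 665 windows for Atp5g1, Atp5g2 and Atp5g3), Atp5g3 held 68.2% ± 5.48, Atp5g1 28% ± 5.23 and Atp5g2 3.84% ± 0.737. Atp5g3 led under each of these scales, while its lead over Atp5g1 varied with them. Raw counts of Atp5g2 were 15 to 64 per library, so its values carry the largest counting error, against 131 to 1068 for Atp5g1 and 1942 to 10207 for Atp5g3.

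No subunit c gene passed the test between Tpp1-/- and control brain at any age or in either region. A call required an adjusted p under 0.1, and a differentially expressed gene (DEG) also a fold change of at least 1.5, in edgeR's quasi-likelihood test with Benjamini-Hochberg adjustment over all genes tested. In F/M, 0 of 3 members were called at 1, 2 and 3 months, where 0.0112%, 3.17% and 0.488% of all genes were called and 0.0112%, 0.737% and 0.464% were DEGs. In Cb, 0 of 3 were called at each age, against 0.0112%, 3.08% and 0.952% of all genes, and 0.0112%, 2.05% and 0.859% of all genes were DEGs. Over the 18 differences the smallest unadjusted p was 0.0642 and the smallest adjusted p 0.361 in edgeR. With DESeq2 and limma-voom, 0 of 18 were called as well, though DESeq2 gave no adjusted p for 1 of the 18.

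**Figure D2:**
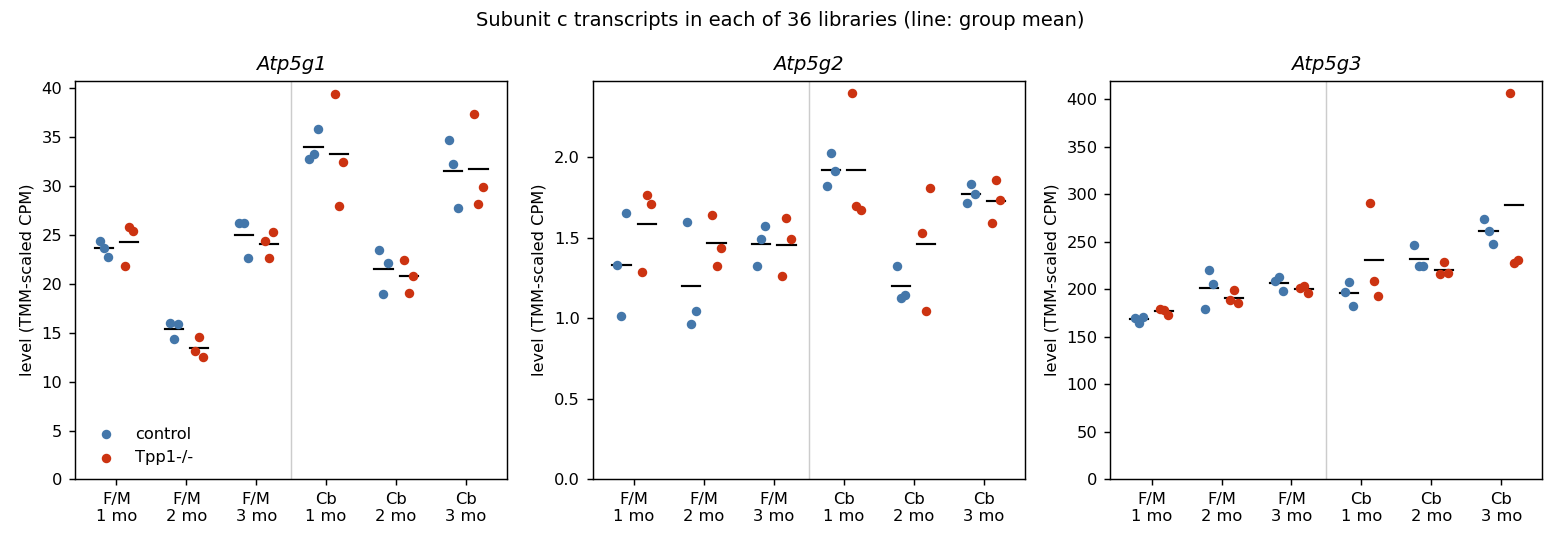
Level of Atp5g1, Atp5g2 and Atp5g3 in each library (y axis, TMM-scaled CPM, from 0), by region, age and genotype, with 3 points and a line at the mean for each group. Control and Tpp1-/- points overlap in every comparison except Atp5g3 in F/M at 1 month, and the Tpp1-/- Cb libraries at 290.9 and 407.1 CPM of Atp5g3 stand above the rest of their age and region.

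Atp5g3 is described first, since it carries most of the measured transcript. In F/M at 1 month the control libraries held 170.1, 165.1 and 170.6 CPM and the Tpp1-/- libraries 179.8, 177.9 and 172.8 CPM. All Tpp1-/- libraries lay above all controls here, as was the case for 8.31% of genes, while 14.8% of genes had groups that did not overlap in either direction. The fold was 1.05 (95% interval 0.88 to 1.25, adjusted p = 1 in edgeR), a log2 difference of 0.07. It was 0.00634 once the trend of each library with transcript length, described below, was removed.

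At 2 months the F/M controls held 179.8, 220.3 and 205.2 CPM of Atp5g3 and the Tpp1-/- libraries 188.8, 199 and 185.7 CPM. Both ends of the range were control libraries, and the fold was 0.948 (95% interval 0.853 to 1.05). At 3 months the F/M controls held 208.8, 213.2 and 197.9 CPM and the Tpp1-/- libraries 201.9, 204 and 195.9 CPM. These groups overlapped too, with a fold of 0.971 (95% interval 0.752 to 1.25).

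In Cb at 1 month, Atp5g3 stood at 197.6, 208 and 182.9 CPM in the control libraries, while the Tpp1-/- libraries read 290.9, 209.3 and 192.8 CPM. Replicate 1 of the Tpp1-/- libraries was far above the other 5 libraries, which lay between 182.9 and 209.3 CPM. The log2 difference was 0.24 ± 0.12 (SE), with an unadjusted p of 0.0642 and an adjusted p of 0.63 in edgeR. Without that library the log2 difference was 0.03 ± 0.072 (SE, adjusted p = 0.937 in edgeR). Without Tpp1-/- replicate 3, which leaves the high library in, it was 0.37 with an adjusted p of 0.0824 in edgeR, which passes as a call but, at under 1.5-fold, not as a DEG. In that fit 1465 genes were called, in place of 2.

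In Cb at 2 months, Atp5g3 stood at 247, 224.6 and 224.8 CPM in the control libraries, while the Tpp1-/- libraries read 216.2, 229 and 217 CPM. The groups overlapped, and the fold was 0.951 (95% interval 0.856 to 1.06). In Cb at 3 months, the control libraries read 274.1, 261.2 and 247.4 CPM and those of Tpp1-/- mice 407.1, 227.9 and 231.1 CPM. Again Tpp1-/- replicate 1 was the highest library, while the other 2 were below every control. The log2 difference was 0.15 ± 0.17 (SE, adjusted p = 0.972 in edgeR) and turned to -0.18 ± 0.065 (SE, adjusted p = 0.201 in edgeR) without that library. The direction at 3 months in Cb therefore rested on a single library.

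The Atp5g1 folds between genotypes lay between 0.873 and 1.03. In F/M its groups had means of 23.6 ± 0.793 and 24.3 ± 2.2 CPM (control and Tpp1-/-, SD, n = 3) at 1 month, 15.4 ± 0.919 and 13.4 ± 1.06 CPM at 2 months and 25 ± 2.05 and 24.1 ± 1.32 CPM at 3 months. The lowest Atp5g1 fold of the 6 comparisons was that in F/M at 2 months, 0.873 (95% interval 0.75 to 1.02, unadjusted p = 0.0779, adjusted p = 0.361 in edgeR). Its controls there held 15.99, 14.34 and 15.88 CPM and its Tpp1-/- libraries 13.1, 14.58 and 12.53 CPM, so that a single Tpp1-/- library reached into the control range. In Cb the group means were 34 ± 1.65 and 33.3 ± 5.75 CPM at 1 month, 21.5 ± 2.27 and 20.8 ± 1.69 CPM at 2 months and 31.6 ± 3.51 and 31.8 ± 4.89 CPM at 3 months.

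Atp5g2 was measured least precisely. Its folds in F/M were 1.19, 1.22 and 0.994 at 1, 2 and 3 months, and in Cb 1.01, 1.2 and 0.974. With 1 library left out at a time, the log2 difference ran from 0.08 to 0.45 in F/M at 1 month (without control replicate 2 and without control replicate 3), from 0.15 to 0.55 in F/M at 2 months (without control replicate 2 and without control replicate 1) and from 0.12 to 0.46 in Cb at 2 months (without Tpp1-/- replicate 3 and without Tpp1-/- replicate 2). At 2 months in F/M, where the fold was highest, controls held 34, 20 and 20 counts (1.6, 0.966 and 1.05 CPM) and Tpp1-/- libraries 33, 21 and 15 counts (1.64, 1.33 and 1.44 CPM). A control library and a Tpp1-/- library were nearly level at the top, and the 95% interval of the fold ran from 0.828 to 1.81 (adjusted p = 0.629 in edgeR).

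**Figure D3:**
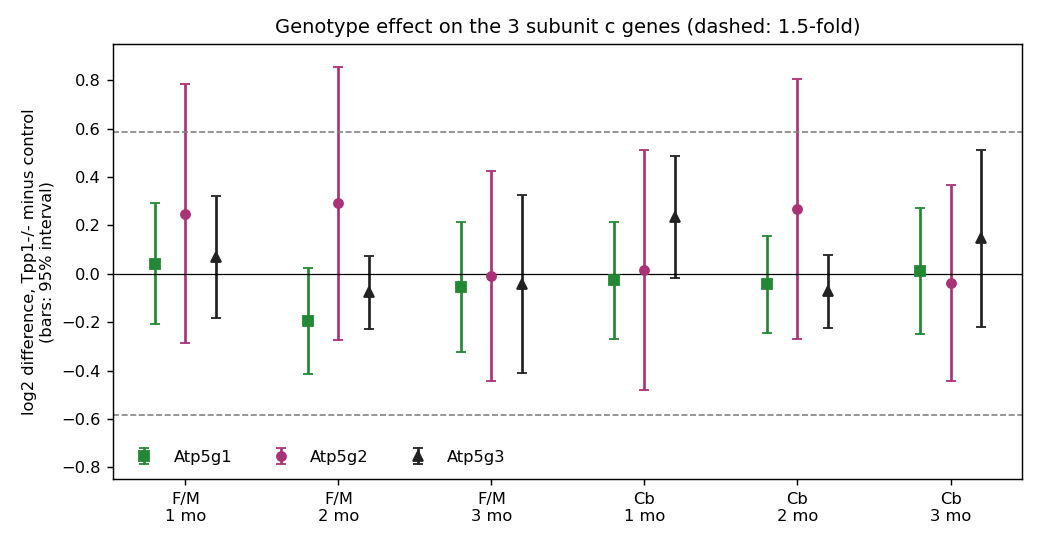
Difference between Tpp1-/- and control for each gene (y axis, log2 scale; points are edgeR estimates from 3 against 3 libraries and bars 95% intervals) in each region and age. All intervals include 0, and those of Atp5g1 and Atp5g3 stay within the dashed lines at 1.5-fold in either direction.

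Summed over the 3 genes, F/M held 82.9 ± 1.54 RPKM in controls and 87 ± 1.35 RPKM in Tpp1-/- mice at 1 month, 96.4 ± 9.03 and 91.3 ± 3.34 RPKM at 2 months and 100.7 ± 3.98 and 97.8 ± 1.68 RPKM at 3 months. Cb held 98 ± 5.54 and 113.8 ± 25.3 RPKM at 1 month, 111.5 ± 6.31 and 106.3 ± 2.76 RPKM at 2 months and 127.1 ± 6.8 and 139.9 ± 47.9 RPKM at 3 months, in the same order. These sums followed Atp5g3, and the largest SDs were those of the Cb Tpp1-/- groups that hold the high libraries.

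The intervals give the range of changes that these libraries leave possible. They rest on a spread estimated from all libraries of an age, the high Cb libraries of 1 and 3 months among them. For Atp5g3 at 1 month the SE of the log2 difference was 0.119 in F/M and 0.118 in Cb. With only the 6 libraries compared, it was 0.0409 in F/M and 0.155 in Cb. For Atp5g1 and Atp5g3, all 6 intervals each lay within 1.5-fold in either direction, with outer limits of 0.75 and 1.22 for Atp5g1 and 0.752 and 1.43 for Atp5g3. For Atp5g2, 3 of 6 intervals did, and the widest reached 1.81.

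The genotype effect did not differ detectably between regions, or between 1 and 3 months. The effect at 2 months was not compared with that at another age. The interaction, which subtracts the log2 effect in F/M from that in Cb, lay between -0.23 and 0.19 over the 3 genes and 3 ages, and 0 of 9 were called (smallest adjusted p = 0.756 in edgeR). Over all genes, 0% were called at 1 month, 2.97% at 2 months and 0.00581% at 3 months. At 1 month 0 genes passed in edgeR, DESeq2 or limma-voom, and 347 had an unadjusted p under 0.05 in edgeR, which is 1.94% of those tested. The effect at 3 months minus that at 1 month was -0.09 for Atp5g1, -0.25 for Atp5g2 and -0.1 for Atp5g3 in F/M, and 0.04, -0.05 and -0.09 in Cb, on the log2 scale. None of these 6 was called (smallest adjusted p = 0.947 in edgeR), against 0.153% of all genes in F/M and 0.458% in Cb. Leaving out the high Cb library at 3 months alone brought Atp5g3 to -0.43 with an adjusted p of 0.0795 in edgeR, and leaving out the high Cb libraries of both ages gave -0.21 with an adjusted p of 0.282.

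Atp5g1 differed between regions at every age. It was higher in control Cb than in control F/M at each age, by 1.44-fold at 1 month, 1.39-fold at 2 months and 1.26-fold at 3 months (adjusted p = 0.00128, 0.000292 and 0.0345 in edgeR). At 1 month the F/M controls held 24.35, 23.71 and 22.78 CPM and the Cb controls 32.73, 33.3 and 35.84 CPM, and the groups were separate at 2 and 3 months as well. Without F/M control replicate 3 or Cb control replicate 1, the adjusted p at 3 months was 0.142 in edgeR, with log2 differences of 0.26 in both cases.

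Atp5g3 also read higher in Cb controls. Its folds were 1.16, 1.15 and 1.26 at 1, 2 and 3 months, and only that at 2 months was called (adjusted p = 0.137, 0.0203 and 0.119 in edgeR), although every Cb control lay above every F/M control at each age. The spread behind these tests came from all libraries of an age, at 1 and 3 months the high Cb Tpp1-/- libraries among them. With an F/M library and the Cb library that carries its number taken as 1 mouse, the adjusted p was 0.0941 at 1 month and 0.0895 at 3 months in edgeR, on the other side of the threshold. Atp5g2 was called higher in Cb at 1 month only (fold 1.44, 95% interval 1.003 to 2.06, adjusted p = 0.084 in edgeR). With the libraries paired in this way the adjusted p was 0.113, and with 1 library left out at a time it ran from 0.114 to 0.301, except without F/M control replicate 3, where it was 0.0472. At 2 months its regional fold was 0.988 and at 3 months 1.21 (adjusted p = 0.958 and 0.259 in edgeR).

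Markers of several cell types separated the same control groups. Summed over 6 genes each, astrocyte markers held 4265 to 4742 CPM in Cb controls and 1980 to 2243 CPM in F/M controls, and microglial markers 71.8 to 90.9 CPM in Cb and 206.8 to 252.8 CPM in F/M. The 6 neuronal genes were lower in Cb at each age, with 5010 to 5374 against 5964 to 6111 CPM at 1 month, 5802 to 5864 against 6531 to 6577 CPM at 2 months and 5767 to 5818 against 6776 to 6935 CPM at 3 months. Choroid plexus markers were higher in Cb controls at 2 months (942.3 to 1236 against 239 to 619.5 CPM) and at 3 months (930.6 to 1491 against 598.7 to 752.6 CPM). Oligodendrocyte markers were lower in Cb controls at 2 months (5864 to 6166 against 6292 to 6840 CPM). At the other ages these 2 lists overlapped between control regions. The part of these markers in the regional differences was not tested.

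A regional difference is common in these data. Of all genes tested, 59.4%, 70.1% and 57.8% were called between control Cb and F/M at 1, 2 and 3 months, and 29.7%, 34.7% and 29.6% were called higher in Cb. Genes whose Cb controls all lay above the F/M controls made up 33.4%, 33.4% and 32.8%. Of the 3 members, 2 were called higher in Cb at 1 month, 2 at 2 months and 1 at 3 months.

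Within an age, the order of the 4 groups was led by Cb for Atp5g1 and Atp5g3. At 3 months, the order of the Atp5g1 means was F/M Tpp1-/- (24.1 ± 1.32 CPM), F/M control (25 ± 2.05 CPM), Cb control (31.6 ± 3.51 CPM) and Cb Tpp1-/- (31.8 ± 4.89 CPM). The neighbours of the same region differed by less than their SD. The same split into an F/M pair and a Cb pair held at 1 and 2 months for both genes. For Atp5g2 at 2 months, both control groups stood at 1.2 CPM and both Tpp1-/- groups at 1.46 to 1.47 CPM, a gap of less than the largest SD of these groups (0.388 CPM).

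The rest of the ATP synthase was examined as a list of 27 genes for the other subunits, the inhibitor, assembly and import factors, and the phosphate and adenine nucleotide carriers. Of these, 25 passed the filter on low counts at every age. The missing ones were mt-Atp6 and mt-Atp8. In the 6 comparisons of genotype no list gene was a DEG, and a single gene was called: Atp5f1, a subunit of the peripheral stalk, in F/M at 2 months. Atp5f1 held 142.2 ± 9.92 CPM (SD, n = 3) in control F/M and 121.4 ± 4.08 CPM in that of Tpp1-/- mice, with a log2 difference of -0.23 and an adjusted p of 0.0785 in edgeR. In that comparison 0.905% of all genes were called lower. Leaving out F/M control replicate 1 brought the count of called list genes there to 8, in a fit that called 2193 genes in place of 546, and leaving out F/M control replicate 2 or 3, or Tpp1-/- replicate 1 or 3, brought it to 0, where 39 to 409 genes were called. In Cb, 6 list genes were called at 1 month without Tpp1-/- replicate 3, among 1465 genes in place of 2, and 1 at 3 months without Tpp1-/- replicate 1, among 467 genes in place of 164.

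The list leaned to one side together in several comparisons. In F/M, 22 of 25 genes were higher in Tpp1-/- mice at 1 month (median log2 difference 0.07), whereas 23 of 25 were lower at 2 months (median -0.11) and 24 of 25 were lower at 3 months (median -0.08). In Cb, 22 of 25 were higher at 1 month (median 0.12), 19 of 25 lower at 2 months (median -0.02) and 21 of 25 higher at 3 months (median 0.07). Apart from Atp5f1 in F/M at 2 months these differences did not pass the test. Over all genes the median lay between -0.00379 and 0.00614 in the 6 comparisons. The genes share their libraries and are not independent of each other.

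Summed marker levels in F/M also separated control from Tpp1-/- libraries. The 6 neuronal genes held 5964 to 6111 CPM in F/M controls and 6275 to 6536 CPM in Tpp1-/- libraries at 1 month, 6531 to 6577 and 5384 to 6428 CPM at 2 months, and 6776 to 6935 and 6504 to 6743 CPM at 3 months, on the side of the list each time. The 6 astrocyte genes were higher in Tpp1-/- F/M at all 3 ages, with 2038 to 2168 against 2191 to 2231 CPM, 1980 to 2154 against 2202 to 2619 CPM and 2189 to 2243 against 2495 to 2569 CPM. In F/M at 2 months, where Atp5f1 was called, the forebrain list was lower in Tpp1-/- libraries (597.1 to 621.3 against 674.8 to 687.3 CPM in controls), and the midbrain and thalamus list (360 to 370.2 against 287.5 to 303.9 CPM) and the cerebellar list (95.4 to 109.2 against 73.7 to 90 CPM) were higher. At 3 months the midbrain and thalamus list (332 to 360.9 against 406.7 to 417.8 CPM) and the cerebellar list (76.8 to 96 against 98.4 to 108.1 CPM) were lower in Tpp1-/- F/M. Oligodendrocyte markers were also lower there (4655 to 5243 against 5516 to 5761 CPM), and microglial markers higher (271.2 to 299.6 against 233.8 to 240.2 CPM). The cerebellar list was lower at 1 month too (83.1 to 95.5 against 100.5 to 116.6 CPM). In Cb the neuronal list overlapped between genotypes at each age, while astrocyte and microglial markers were separate and higher in Tpp1-/- libraries at 3 months and choroid plexus markers at 2 months. The part of these markers in the differences between genotypes was not tested.

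**Figure D4:**
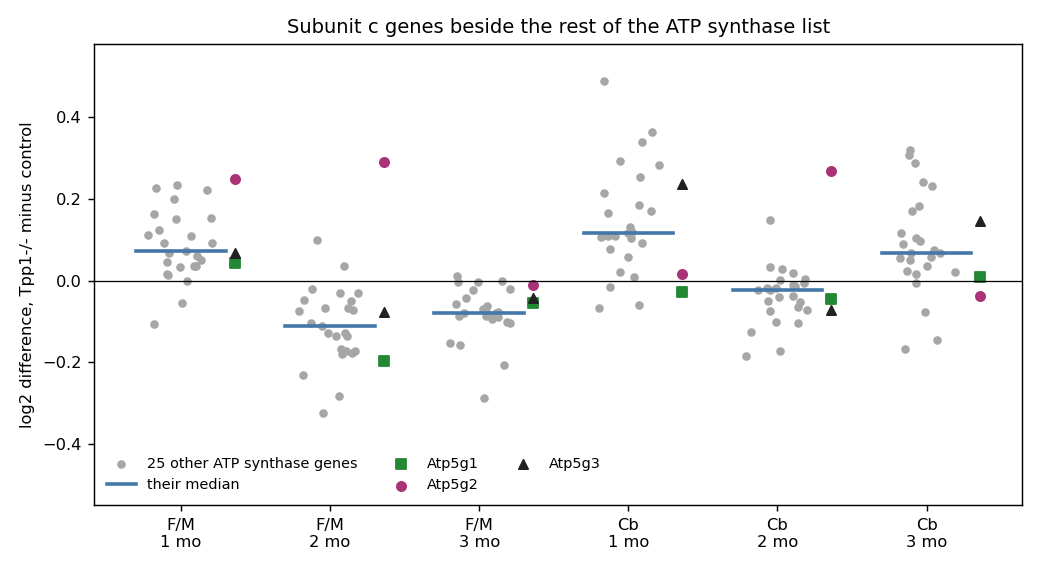
Difference between Tpp1-/- and control (y axis, log2 scale) for the 25 tested genes of the ATP synthase list (grey), their median (bar) and the 3 subunit c genes (coloured), by region and age. The medians lie between -0.11 and 0.12, and Atp5g3 sits on the same side of 0 as the median in all 6 comparisons.

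By role, the catalytic head with the central stalk (5 genes), the peripheral stalk and membrane part (9 genes), the inhibitor Atpif1, the assembly and import factors (7 genes) and the carriers (3 genes) had no called gene but Atp5f1. The central stalk subunit Atp5e had the highest log2 difference of the list in F/M (0.24) and Cb (0.49) at 1 month, and Atp5d, another central stalk subunit, the lowest in F/M at 1 month (-0.1) and in Cb at 2 months (-0.18). At 2 months Atp5l, a small membrane subunit, was highest in both regions (0.1 in F/M and 0.15 in Cb), and Usmg5, a small membrane protein of the enzyme, was lowest in F/M (-0.32). The assembly factor Atpaf1 was lowest at 3 months in F/M (-0.29) and Cb (-0.17), with the import protease subunit Pmpca (0.01) and the membrane subunit 2010107E04Rik (0.32) highest. Atpaf2, an assembly factor, was lowest in Cb at 1 month (-0.07).

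Between control regions, 9 of the 25 list genes were called higher in Cb at each age and 2, 4 and 1 were called lower at 1, 2 and 3 months. The background stood at 29.7%, 34.7% and 29.6% of genes called higher and at 29.7%, 35.4% and 28.2% called lower. Atp5l had the highest log2 difference at each age (0.69, 0.8 and 0.67) and Atpaf1 the lowest (-0.42, -0.54 and -0.54).

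Replicate 1 of the Cb Tpp1-/- libraries at 1 month and at 3 months stood apart over much of the transcriptome. Relative to the mean of its age and region, which includes the library itself, Atp5g3 was higher by 0.46 and 0.6 on the log2 scale in these libraries, the top 2 values of 36. The median gene of the ATP synthase list was higher by 0.3 (23 of 25 genes above the mean) and 0.44 (25 of 25). In the same libraries the genes in the lowest quintile of transcript length were higher than those in the highest quintile by 0.48 and 0.67 in the median log2 deviation, again the top 2 values of 36.

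**Figure D5:**
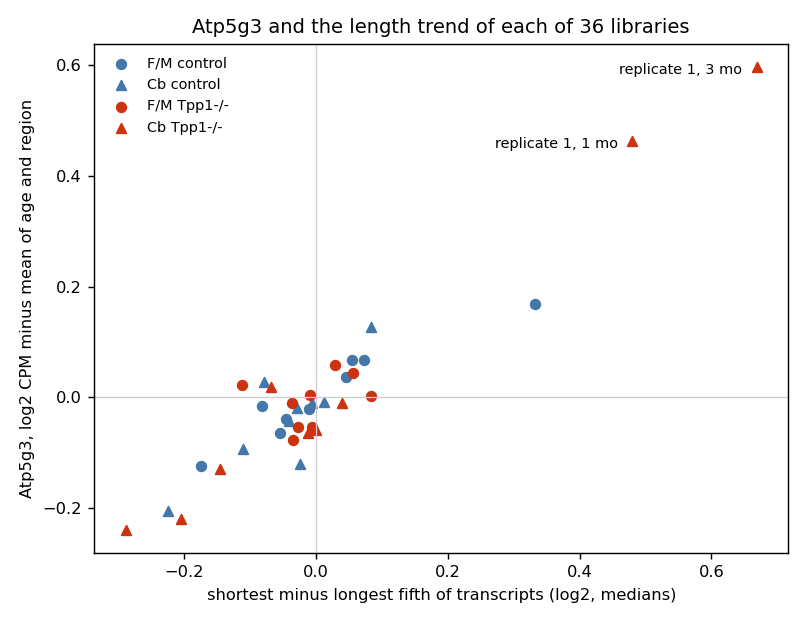
Deviation of Atp5g3 in each of 36 libraries from the mean of its age and region (y axis, log2 CPM) against the difference between the median deviations of the lowest and the highest quintile of transcript length (x axis, log2). Cb Tpp1-/- replicate 1 at 1 month (0.48, 0.46) and at 3 months (0.67, 0.6) lie far to the upper right.

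Without these libraries the lean of the list in Cb changed. At 1 month 14 of 25 genes were higher in Tpp1-/- mice without replicate 1, in place of 22, and at 3 months 0 of 25 were higher, in place of 21. With the trend of each library against transcript length removed, an alternative chosen after seeing the data, the Atp5g3 difference in Cb was 0.07 at 1 month and 0.02 at 3 months on the log2 scale. Under the same alternative, 15 and 12 of 25 list genes were higher in Cb at 1 and 3 months. The regional difference of Atp5g3 in controls was then 0.26, 0.22 and 0.39 at 1, 2 and 3 months (adjusted p = 0.00708, 0.00114 and 0.000699 in edgeR). The trend was taken about the mean of all libraries of an age and region, Tpp1-/- libraries included. This regional difference therefore does not rest on control libraries alone, and its adjusted p takes no account of the fitted trend. In F/M at 1 month the difference between short and long transcripts also separated the groups, with -0.082 to -0.0108 in controls and 0.0283 to 0.0831 in Tpp1-/- libraries. With the trend removed, 17 of 25 list genes were higher there in place of 22, while 20 and 19 were lower in F/M at 2 and 3 months in place of 23 and 24. What set these libraries apart was not tested.

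The genes most like each member were found by Pearson correlation of log2 CPM over the 36 libraries among 18322 genes, as a description, after the mean of each age was removed. Differences between regions and between genotypes remained in these correlations. For Atp5g3 these were Ndufa4 (0.964), Atp5h (0.96), Atp5j (0.956), Hint1 (0.953) and Sdhc (0.951). Ndufa4 is a subunit of cytochrome c oxidase, Atp5h and Atp5j are subunits of the ATP synthase stalk, and Sdhc anchors succinate dehydrogenase in the membrane. With the mean of each of the 12 groups removed instead, so that only differences between replicates remained, Atp5b (0.961), Polr1d (0.96) and Brk1 (0.959) led. Atp5b encodes the catalytic beta subunit, Polr1d a subunit of RNA polymerases and Brk1 a small actin regulator, and the points share the length trend described above.

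Atp5g1 kept other company. Its closest genes were Id2 (0.932), Erg28 (0.932), Tmem50b (0.924), Extl2 (0.924) and Eed (0.916), and within groups Oxnad1 (0.76), Ptcd2 (0.754) and 4933434E20Rik (0.75). Id2 is a transcriptional regulator and Eed a Polycomb component. The correlation between Atp5g1 and Atp5g3 was 0.745 with age means removed and 0.574 within groups. Atp5g2, with its low counts, reached only 0.66 with Gm42946, followed by Gm42771 (0.638), Hypk (0.623), Snora41 (0.622) and Phf11c (0.622), and within groups AU040972 (0.733), Prss57 (0.65) and Gm47664 (0.615). Its correlation with Atp5g3 was 0.292 with age means removed and -0.0353 within groups.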

How the data were processed

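Gene counts were deposited by the authors for each of 36 libraries as 1 table per sample. Per the study's methods and the submitters' processing notes, RNA was purified with TRIzol and RNeasy, stranded mRNA libraries were read as 50-base single ends, and reads were aligned with STAR 2.5.2b to mm10 (GRCm38). Per the file headers, the authors made the counts with featureCounts 1.6.3 on GENCODE M21 with strand setting 1 (1 month), 1.6.2 on M16 with setting 2 (2 months) and 1.6.2 on M18 with setting 1 (3 months), and asked for fractional counting of reads with several matches. All deposited counts are nonetheless whole numbers, and how such reads were treated was not settled. Ages were therefore fitted apart.

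The 4 groups of an age were fitted together in edgeR 4.0.16 (R 4.3.3) with TMM scaling, filterByExpr and the quasi-likelihood test, with Benjamini-Hochberg adjustment over the 17916, 17229 and 17224 genes tested at 1, 2 and 3 months. A fit of all 36 libraries (18322 genes) gave the age difference of the genotype effect and, from log2 CPM with a prior count of 2, the correlations. RPKM used the deposited gene lengths. Shared windows were found by exact matching of 50-base windows, on both strands, to the M21 transcripts. The scripts were tested on simulated counts with 200 changed genes. DESeq2 1.42.0, limma 3.58.1 (voom), other scalings and filters, covariates, a replicate block and leaving out each library were alternatives. The members and gene lists were chosen with earlier results of these data known. Text names the members, Tpp1, list genes that were called or had the highest or lowest difference in a genotype comparison, and the 5 and 3 genes of highest correlation. The highest and lowest list genes between regions were named after their values were seen.

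Same-numbered libraries were checked for pairing by the correlation of their deviations from group means. F/M and Cb controls at 1 month had correlations of 0.124 to 0.198 in all 3 pairs, above the limit of 0.1, and no other set of same-numbered libraries passed it in every pair. The labels do not say that they come from 1 mouse. No 2 replicates were identical, and none of the 36 replicate pairs agreed within sampling noise (chi-square per degree of freedom at least 1.43).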

Additional observations from a re-analysis of the deposited data

How the results depend on the processing

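No subunit c gene was a DEG between genotypes under any alternative run, among them DESeq2, limma-voom, other scalings and filters, a sex term, only the 6 libraries compared and a replicate block. By adjusted p alone 1 of 335 values passed, that of Atp5g3 in Cb at 1 month without Tpp1-/- replicate 3 (0.37, adjusted p = 0.0824 in edgeR). For differences that were not called, the sign turned as follows on the log2 scale. With library totals in place of TMM, the genotype difference became 0.0114 for Atp5g1 in Cb at 1 month and 0.00929 for Atp5g2 in F/M at 3 months. With the length trend removed, it became 0.0336 for Atp5g1 in Cb at 1 month, -0.155 for Atp5g2 in Cb at 1 month, 0.0361 for Atp5g2 and 0.00574 for Atp5g3 in F/M at 3 months, and the interaction of Atp5g3 at 2 months became -0.0153. With no filter the interaction of Atp5g2 at 2 months became 0.00225, and without both Cb Tpp1-/- libraries of number 1 the age difference of Atp5g2 in Cb became 0.225. The regional difference of Atp5g2 at 2 months became 0.0129 with limma-voom, 0.0104 with library totals and 0.0105 with the replicate block. The regional call of Atp5g2 at 1 month was lost with DESeq2 (0.511, adjusted p = 0.141), no filter (0.532) and the replicate block (0.532, adjusted p = 0.113 in edgeR). Atp5g3 gained a regional call at 1 month with library totals (0.261), no filter (0.224), the replicate block (0.216) and the length trend removed (0.258), and at 3 months with the same settings (0.447, 0.334, 0.336 and 0.393). Taking numbers as pairs changed no other call on these genes; in 23 of 36 matches of a library to the 3 of another group, the best match carried its own number. With the length trend removed, 2 list genes were called in F/M at 2 months and 12 of 25 were higher in Cb at 3 months. Shares without length were 10.4%, 0.653% and 89% for Atp5g1, Atp5g2 and Atp5g3, per unique window of all transcripts 5.57%, 1.52% and 92.9%, and per unique window of the coding transcript with the fewest 28%, 3.84% and 68.2%. Removal of the length trend, shares per unique window and leaving out both Cb libraries of number 1 were chosen after seeing the data. The length trend was taken with Tpp1-/- libraries included, also for the regional difference in controls. The cause of these shifts was not tested.

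With 1 library left out at a time, genotype differences of Atp5g1 ran from -0.00139 to 0.116 (F/M, 1 month), -0.175 to 0.0824 (Cb, 1 month), -0.13 to 0.0178 (Cb, 2 months) and -0.121 to 0.0933 (Cb, 3 months). Those of Atp5g2 ran from -0.195 to 0.128 (Cb, 1 month), -0.0965 to 0.0799 (F/M, 3 months) and -0.0919 to 0.0225 (Cb, 3 months), and that of Atp5g3 from -0.183 to 0.293 (Cb, 3 months). Interactions ran from -0.223 to 0.035 and -0.0714 to 0.144 for Atp5g1 (1 and 3 months), -0.28 to 0.167 and -0.118 to 0.0588 for Atp5g2 (2 and 3 months), and -0.0433 to 0.293, -0.0639 to 0.0889 and -0.144 to 0.332 for Atp5g3 (1, 2 and 3 months). Age differences in Cb ran from -0.102 to 0.19 (Atp5g1), -0.165 to 0.162 (Atp5g2) and -0.428 to 0.122 (Atp5g3). Regional differences ran from 0.259 to 0.421 for Atp5g1 at 3 months, and for Atp5g2 from 0.354 to 0.721 at 1 month and -0.157 to 0.267 at 2 months. In the ATP synthase list, 14 to 24 genes were higher in Cb at 1 month and 0 to 23 at 3 months, with 0 to 6 and 0 to 1 called, and 0 to 8 were called in F/M at 2 months. Over all genes, only the 6 libraries compared gave 94 calls in F/M at 2 months in place of 546 and 1801 at 3 months in place of 84, 46 in Cb at 3 months in place of 164, and the replicate block gave 5 interaction calls at 1 month in place of 0. With 1 library left out, calls ran from 1 to 1465 in Cb at 1 month, 110 to 467 in Cb at 3 months, 39 to 2193 in F/M at 2 months and 34 to 66 in F/M at 3 months. No filter gave 21, 1110 and 227 calls in F/M at 1, 2 and 3 months in place of 2, 546 and 84, 195 and 350 in Cb at 1 and 3 months in place of 2 and 164, and 28, 782 and 75 interaction calls in place of 0, 511 and 1. DESeq2 gave 4 and 145 calls in F/M at 1 and 3 months, 7 in Cb at 1 month and 10 interaction calls at 3 months, and removal of the length trend gave 1007 and 139 in F/M at 2 and 3 months and 2 interaction calls at 3 months. Depth limits Atp5g2 most, with 15 to 64 counts per library.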
